A study of Homo sapiens with 12 samples.

Results

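Valine and isoleucine are, with leucine, the branched-chain amino acids, and their codons served here as comparators for the leucine codons in cells that lack THUMPD1. The members were chosen by amino acid alone, from the amino acid column of the occupancy tables, and were 7 of 61 sense codons, 4 for Val and 3 for Ile. The tables spell codons as DNA, and they are given here as mRNA, with U for T. They are shown with the Leu codons of the same last base, since every codon in these lines has U in the middle and the lines differ in the first and the last base.

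Val: GUU, GUC, GUA and GUG
Ile: AUU, AUC and AUA
Leu, box of 4 codons: CUU, CUC, CUA and CUG
Leu, box of 2 codons: UUA and UUG

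Ribosome profiling sequences mRNA fragments that ribosomes protect from nuclease, and disome profiling does the same for the longer fragments under a stacked pair of ribosomes. The cells were the human embryonic kidney line labelled HEK293 (HEK-293T in the study's methods), grown without any added treatment. They were wild type (WT) or knockout (KO), the latter made by deleting THUMPD1 with CRISPR-Cas9. Each genotype had 4 monosome libraries and 2 disome libraries, 12 in all. The KO cells went through single-cell sorting, and the number of clones behind the libraries is not given in the sources used here, so genotype and clone cannot be told apart. The study describes the replicates of both footprint kinds as biological. Nothing in the labels says whether they were separate cultures, so the p-values measure the spread between these libraries, part of which may be technical.

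THUMPD1 is the adapter with which the acetyltransferase NAT10 places N4-acetylcytidine on the D arm of tRNAs for leucine and serine. The tRNAs for valine and isoleucine do not carry this mark. A tRNA with inosine at the wobble position of its anticodon reads the codons that end in U and C in the Val and Ile boxes. The same holds for the Leu box that begins with CU. Codons that end in A or G have tRNAs with other anticodons, though inosine can also pair with A. Invoking wobble rules, the study assigns UUG, CUA, CUU and UUA jointly to a Leu tRNA with anticodon UAA and another that often carries inosine. AUA is the rare Ile codon in human genes, and an isoleucine tRNA with another anticodon reads it. The ribosomal A site is where the incoming tRNA pairs with its codon, and a slower step at that codon raises the share of footprints found there.

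The value analysed was relative codon occupancy, a ratio on a linear scale that averages about 1 over the codons of a library and that the study places at the A site (for disomes, that of the leading ribosome). Library means were 0.981 to 1.00 in monosomes and 0.949 to 0.962 in disomes. The SD of log2 occupancy over codons ran from 0.26 to 0.41 in monosome libraries and from 0.43 to 0.56 in disome libraries. The read depth behind each value is unknown.

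The 7 codons were first described by their level. In monosomes the Val codons and the Ile codons AUU and AUC were occupied less than most, whereas AUA stood well above them. Of the 7 codons, 6 lay below the median level of the 61 sense codons, AUA being the exception. The median occupancy was 0.827 for the 7 and 0.918 for all 61. By mean log2 occupancy over the libraries of both genotypes Val was 17th and Ile 18th of 20 amino acids, and Leu was 6th. The mean of Leu was -0.05 in WT and 0.24 in KO, so its rank takes in the genotype change.

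AUU, read by the inosine tRNA, was the least occupied sense codon in both genotypes. Its monosome occupancy was 0.616, 0.540, 0.710 and 0.688 in WT replicates 1 to 4 and 0.595, 0.549, 0.733 and 0.692 in KO replicates 1 to 4. It was the lowest of 61 codons in 7 of 8 libraries, and in KO replicate 3 it ranked 58th. AUC, its partner under the same tRNA, lay from 0.585 to 0.774 and ranked between 57th and 60th in every library. AUU was below AUC in 8 of 8 libraries, by 0.11 on the log2 scale (SE 0.04, limma adjusted p = 0.0177).

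AUA behaved otherwise. Its occupancy was 1.21, 1.05, 1.03 and 1.17 in WT replicates 1 to 4 and 1.23, 0.963, 1.25 and 1.17 in KO replicates 1 to 4. It was the highest of the 7 codons in 8 of 8 libraries and exceeded 1 in 7 of 8, while none of the 48 values of the other 6 codons did. AUU lay below AUA by 0.83 on the log2 scale (SE 0.06, limma adjusted p = 2.26e-07), and AUC lay below AUA by 0.72 (SE 0.05, limma adjusted p = 3.31e-07). In human coding sequences (GENCODE release 44, 19535 transcripts) AUA made up 17.6% of Ile codons, AUC 45.6% and AUU 36.8%.

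The Val codons were close together. GUU, which shares an inosine tRNA with GUC, was the lowest Val codon in 8 of 8 monosome libraries. Its occupancy was 0.748, 0.767, 0.773 and 0.793 in WT replicates 1 to 4 and 0.716, 0.711, 0.730 and 0.774 in KO replicates 1 to 4. It was below GUC by 0.16, below GUA by 0.14 and below GUG by 0.20 on the log2 scale (limma adjusted p = 0.00306, 0.00544 and 0.00161). GUC, GUA and GUG could not be ordered. Their differences were at most 0.07 on the log2 scale, with adjusted p from 0.234 to 0.583 by limma. GUA and GUG sit far apart in usage, at 7.18 and 27.4 per 1000 codons of human coding sequences, and their WT occupancy was 0.828 ± 0.00847 (SD, n = 4) and 0.864 ± 0.0441.

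**Figure D1:**
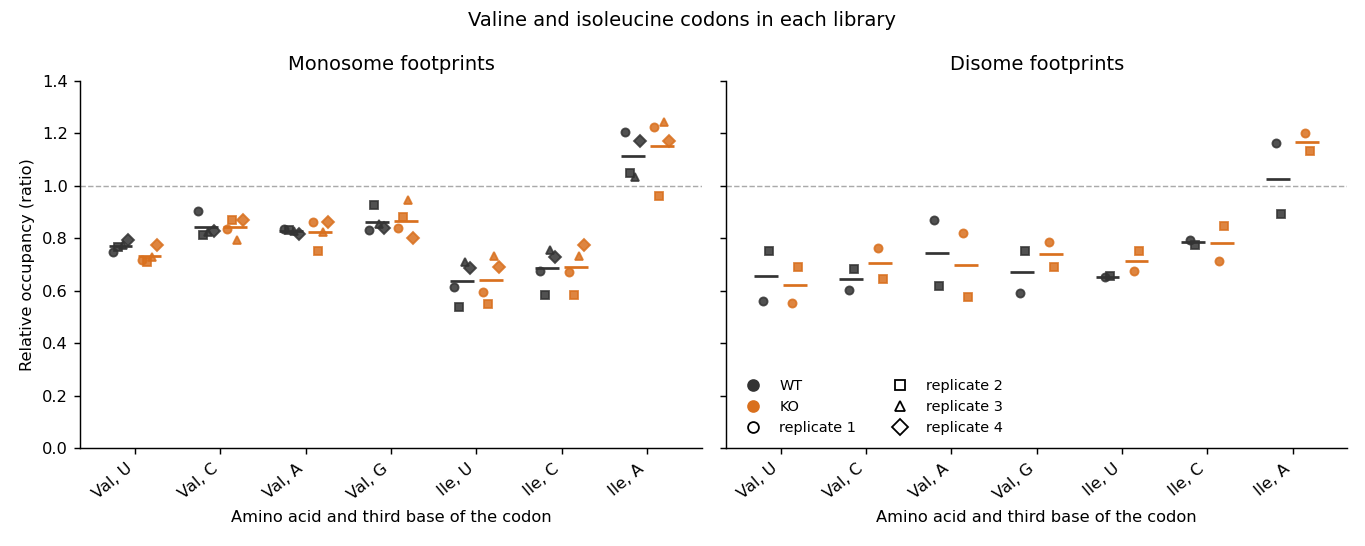
Relative occupancy (ratio, linear axis from 0) of the 7 codons in each library, labelled by amino acid and last base, for monosome and disome footprints. Black marks are WT, orange marks KO, symbols give the replicate number, horizontal bars are group means, and the dashed line is 1. The Ile codon ending in A sits near or above 1, the other 6 sit below 0.95, and WT and KO marks overlap for every codon in monosomes.

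Codons of the same last base were then compared between the amino acids. AUU was below GUU by 0.24 and AUC below GUC by 0.29 on the log2 scale, whereas AUA was above GUA by 0.45 (limma adjusted p = 0.00189, 0.000941 and 2.98e-06). In all, 6 of 9 ratios within Val or Ile and 3 of 3 Ile to Val ratios differed from 0 at an adjusted p under 0.05. Among all 1830 codon ratios 73.3% did so, and these shares are therefore near the background. Many ratios share a codon, so their p-values are not independent.

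The same order by the last base was looked for in the 8 boxes in which all 4 last bases give the same amino acid. The codon ending in U was lowest in 3 of 8 boxes in monosomes, which were Val, Leu and Arg, and lowest in Ile too. The rise from the U-ending to the A-ending codon was larger in Ile, 0.83 on the log2 scale, than in any of the 8 boxes, the nearest being Arg with 0.62 and Leu with 0.42. It was 0.14 in Val. The spread between the highest and lowest codon of a box was 0.20 in Val, the second narrowest of the 8, after Gly with 0.14. These are descriptions of mean levels and were not tested against each other.

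**Figure D2:**
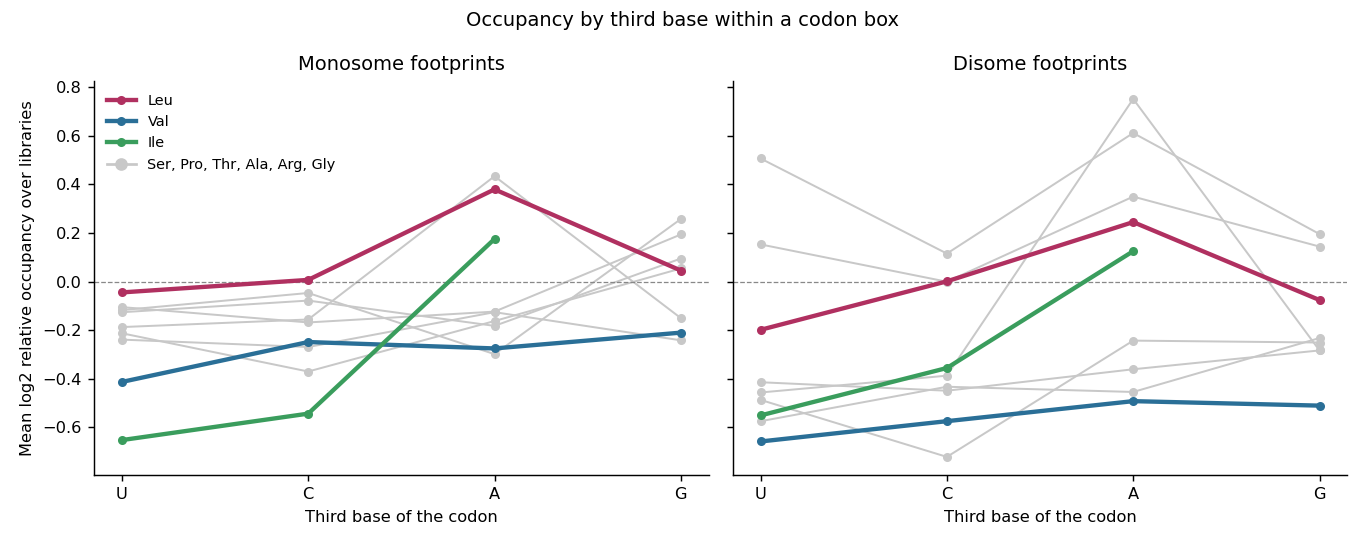
Mean log2 relative occupancy over all libraries of a table (vertical axis) by the last base of the codon (horizontal axis), for monosome and disome footprints. Blue is Val, green Ile, which has no codon ending in G, red the Leu box of 4 codons, and grey the other 6 boxes. Ile climbs steeply from U to A in both panels, and Val stays nearly flat.

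By root mean square difference in log2 occupancy over the 8 monosome libraries, the codon of another amino acid most like AUU was UUC (0.16), and UUC was also nearest to AUC (0.09). UUC encodes Phe and also has U in the middle. The nearest to AUA was CAC of His (0.09). The nearest to GUU was ACC of Thr, to GUC CGU of Arg, to GUA AGC of Ser and to GUG CGC of Arg, each at 0.10. The 16 codons with U in the middle had a median occupancy of 0.885, and the 3 of these that encode Phe or Met had 0.704.

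To ask whether loss of THUMPD1 alters occupancy where the tRNA carries no acetyl mark, KO was compared with WT for each codon. In monosomes none of the 7 Val and Ile codons passed the adjusted p threshold of 0.05 (limma, 0 of 7, smallest adjusted p = 0.812), where 6.56% of the 61 codons passed. At an unadjusted p under 0.05 by limma 0 of 7 passed, against 13.1% of the 61 codons. In two-sided exact permutation tests per codon the smallest unadjusted p of the 7 was 0.114, for GUU. The smallest p that 4 libraries against 4 allow is 0.0286, which cannot pass adjustment over 61 codons, so no adjusted count is drawn from that test. With the replicate number as a block the count was 0 of 7 (smallest limma adjusted p = 0.244), against 13.1% of all codons. WT and KO libraries overlapped for all 7 codons, whereas 9.84% of codons separated the genotypes, 3.28% with KO lower and 6.56% with KO higher.

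The log2 changes of the 7 codons ran from -0.07 to 0.04, with a median of 0.00 and 4 of 7 above 0. Over the 61 codons the median change was 0.00 and 29 were above 0. The median size of the change was 0.01 for the 7 codons and 0.05 for all 61, and 5 of the 7 changed by less than 0.01. The 6 Leu codons had a median change of 0.29. AUU changed by 0.01 and AUC by 0.01, with 95% intervals of -0.24 to 0.25 and -0.22 to 0.24. GUC changed by 0.00 (-0.12 to 0.12), GUA by -0.01 (-0.13 to 0.12) and GUG by 0.00 (-0.14 to 0.15).

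GUU had the change farthest from 0. It was lower in KO by 0.07 on the log2 scale (95% interval -0.18 to 0.03, limma adjusted p = 0.812, and 0.244 with the block) and lower in 4 of 4 same-numbered pairs. AUA had the highest change, 0.04 (95% interval -0.16 to 0.24), and was higher in 3 of 4 pairs, by as much as 0.27 in pair 3. Its change was 0.0016 without KO replicate 3 and 0.13 without KO replicate 2. Averaged over its 4 codons, Val changed by -0.02 with a pooled replicate SD of 0.02, and Ile by 0.02 with a pooled SD of 0.15. By mean change Ile was 6th and Val 11th of 20 amino acids. The intervals of the Val codons ended at 0.15 or below and those of the Ile codons at 0.25 or below, and with the block these limits were 0.10 and 0.16.

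**Figure D3:**
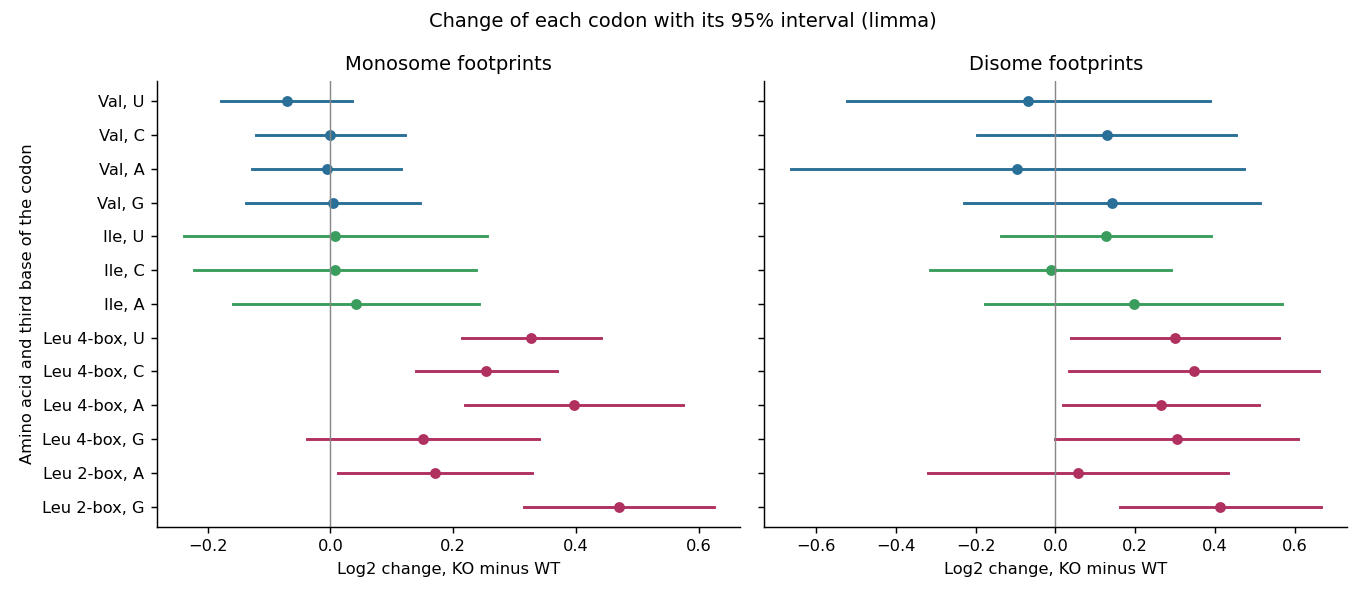
Log2 change of each Val, Ile and Leu codon, KO minus WT (horizontal axis), with points for the estimate and lines for its 95% interval from limma without the block, for monosome (4 libraries per genotype) and disome (2 per genotype) footprints. Leu 4-box names the CUN codons and Leu 2-box UUA and UUG, each followed by the last base. In monosomes the Val and Ile points lie between -0.07 and 0.04, and the Leu points lie from 0.15 to 0.47. The disome intervals are wider and reach both sides of 0 for all 7 Val and Ile codons.

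The difference from Leu was tested directly with ratios of codons within a library, which do not depend on the library's baseline. There were 10 ratios of a Leu codon over a Val or Ile codon with the same last base. In monosomes all 10 changes, KO minus WT, had point estimates above 0, from 0.13 to 0.47 on the log2 scale (median 0.29), and each ratio was higher in KO in 4 of 4 same-numbered pairs. By limma 3 of the 10 passed an adjusted p of 0.05, where 6.45% of 1830 ratios did. With the replicate number as a block 7 of 10 passed, against 16.3%. Several of the 10 ratios share a codon, so they are not independent. The share called among all ratios that hold a Leu codon was not computed, so nothing particular to Val or Ile follows.

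UUG over GUG had the largest change. The log2 ratio was 0.35, 0.22, 0.21 and 0.18 in WT replicates 1 to 4 and 0.84, 0.77, 0.53 and 0.67 in KO replicates 1 to 4. The ranges of the genotypes did not overlap, and the change was 0.47 (SE 0.09, limma adjusted p = 0.0131). CUU over GUU was 0.27, 0.20, 0.09 and 0.12 in WT replicates 1 to 4 and 0.57, 0.64, 0.63 and 0.43 in KO replicates 1 to 4. Here too every KO library exceeded every WT library, with a change of 0.40 (SE 0.08, limma adjusted p = 0.0180). CUA over GUA rose from 0.45 ± 0.11 (SD, n = 4) to 0.86 ± 0.18 on the log2 scale, a change of 0.40 (SE 0.10, limma adjusted p = 0.0435). Its genotypes were again separate, as they were in 6 of the 10 ratios. UUG, CUU, CUA and CUC also separated the genotypes on their own, higher in KO, where 6.56% of the 61 codons did. The count of 6 is therefore not read as particular to the Val or Ile partner. The share of all 1830 ratios that separated the genotypes was not computed.

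CUC over GUC differed by 0.25 (SE 0.07), which missed the threshold without the block and passed with it (limma adjusted p = 0.0705 and 0.00685). Against Ile, the change was 0.32 for CUU over AUU, 0.25 for CUC over AUC and 0.35 for CUA over AUA. Their adjusted p was 0.253, 0.448 and 0.125 by limma without the block, and 0.000626, 0.00590 and 0.00108 with it. CUU over AUU and CUC over AUC varied more between libraries of a genotype than CUU over GUU and CUC over GUC did, with SDs on the log2 scale of 0.15 to 0.23 against 0.06 to 0.10. UUA over GUA (0.18), UUA over AUA (0.13) and CUG over GUG (0.15) did not pass with or without the block, and with it their limma adjusted p was 0.0770, 0.120 and 0.117. Their 95% intervals without the block were 0.003 to 0.35, -0.04 to 0.29 and -0.07 to 0.36. The genotypes were separate for UUA over GUA and overlapped for UUA over AUA and CUG over GUG.

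Whether the threshold was passed depended on single libraries. None of the 10 ratios passed when WT replicate 4 or KO replicate 1 was left out (limma, smallest adjusted p = 0.0573 and 0.0543). UUG over GUG alone passed when WT replicate 3 or KO replicate 3 was left out. The changes themselves stayed similar in size when any 1 library was left out, from 0.42 to 0.52 for UUG over GUG, 0.37 to 0.44 for CUU over GUU and 0.33 to 0.48 for CUA over GUA on the log2 scale.

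**Figure D4:**
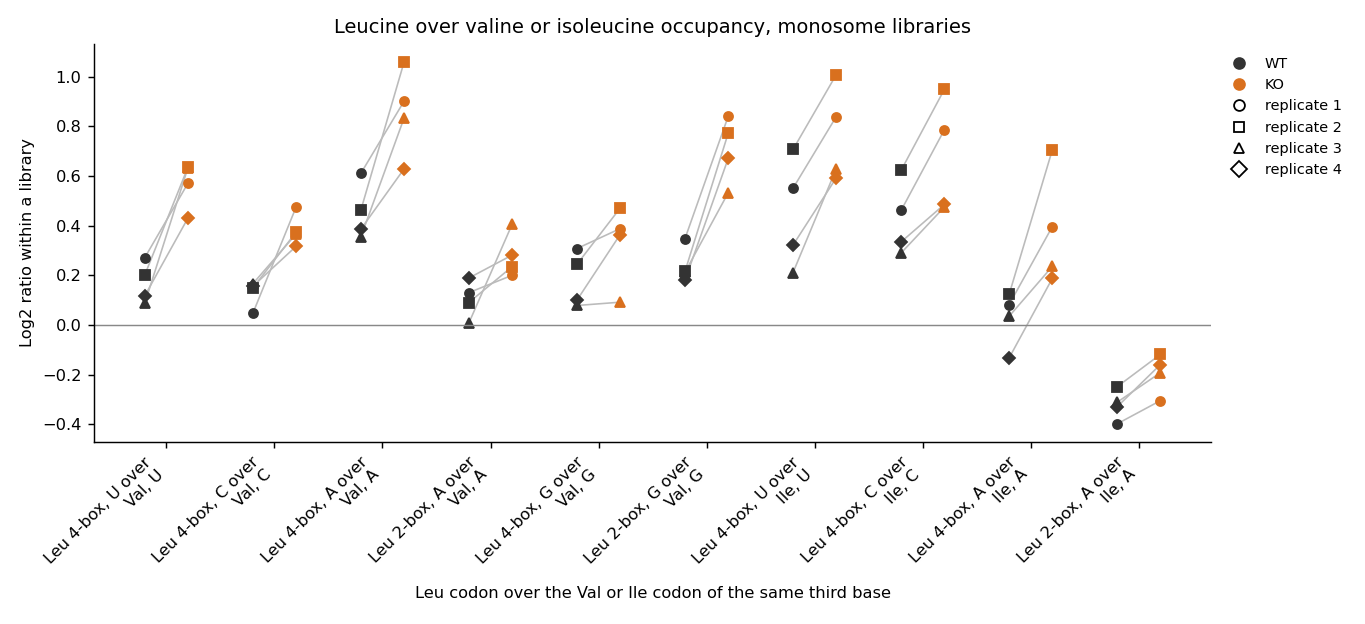
Log2 ratio of a Leu codon over the Val or Ile codon with the same last base, within each monosome library (vertical axis), for 10 codon pairs. Black marks are WT, orange marks KO, symbols give the replicate number, and grey lines join libraries of the same number. Leu 4-box names the CUN codons and Leu 2-box UUA and UUG, each followed by the last base. Every line climbs from WT to KO, and UUA over AUA, the last pair, stays below 0 in both genotypes.

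In WT monosomes alone the levels of Leu and its neighbours were as follows. The log2 ratio was 0.17 ± 0.08 (SD, n = 4) for CUU over GUU and 0.45 ± 0.22 for CUU over AUU, and it was above 0 in 4 of 4 WT libraries for both. It was 0.13 ± 0.06 for CUC over GUC and 0.43 ± 0.15 for CUC over AUC, again above 0 in every WT library. CUA over AUA was 0.03 ± 0.11, with WT replicate 4 below 0 at -0.13. UUA lay below AUA in every WT library, at -0.32 ± 0.06. These levels are a description.

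The study's split of Leu codons by U/A and C/G content led to the question of whether the last base mattered for Val and Ile. Within Val or Ile, 0 of 9 ratios changed with genotype (limma, smallest adjusted p = 0.985), against 6.45% of all ratios. With the block 0 of 9 did so, against 16.3%. At an unadjusted p under 0.05 by limma 0 of 9 passed, and the share of all ratios at that p was not computed. The 4 codons ending in U or A changed by 0.01 less than the 3 ending in C or G on the log2 scale, with a pooled SD of 0.06. For Leu codons split by the last base alone the U or A-ending codons changed by 0.01 more, and for the 48 codons of other amino acids the difference was 0.00. That split puts UUG with the C/G-ending codons, unlike the study's.

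In monosomes the difference between the lowest and the highest replicate number exceeded the genotype change for all 7 codons. A range over 4 means of 2 libraries tends to exceed a difference of 2 means of 4 libraries by noise alone. The sizes are therefore not directly comparable. Over the 61 codons the median difference between numbers was 0.19 on the log2 scale and the median size of the genotype change 0.05. Libraries with the same replicate number lay close together for AUU, and its mean differed by 0.41 on the log2 scale between the lowest and the highest number, against a genotype change of 0.01. This range was 0.36 for AUC and 0.27 for AUA, with genotype changes of 0.01 and 0.04, while it was 0.10 for GUU, GUC and GUA and 0.14 for GUG, with genotype changes of at most 0.07 in size. AUU was lowest in both libraries of number 2, at 0.540 and 0.549, and these had the largest spread over codons in their genotype (SD of log2 occupancy 0.41 in WT and 0.39 in KO). The numbers 3 and 4, with SDs from 0.26 to 0.30, had AUU at 0.688 or above. Measured in units of its library's SD, AUU lay 1.38 to 2.01 below the library mean. The SD takes in AUU and the other members, so level and spread are not independent. The part of library spread in these levels was not tested.

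**Figure D5:**
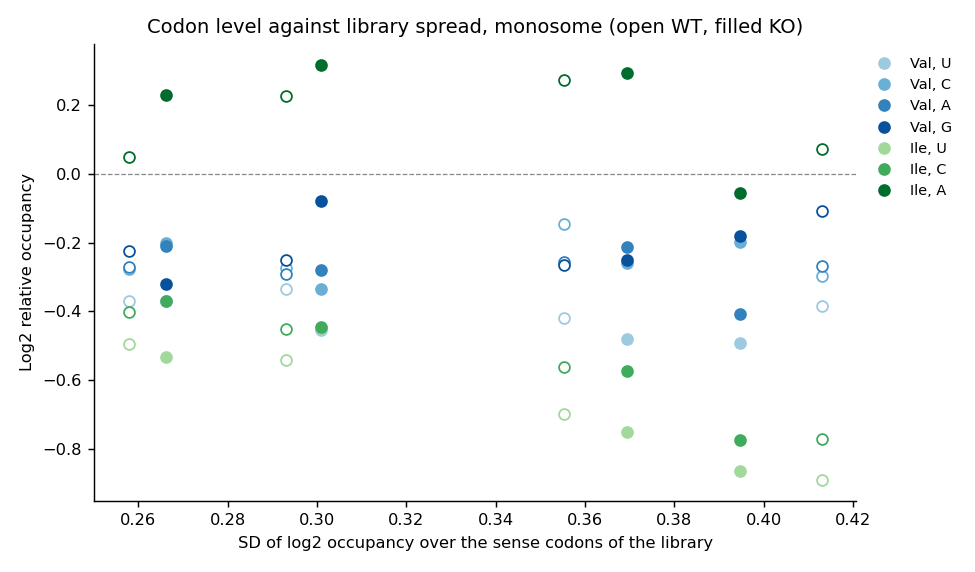
Log2 relative occupancy of the 7 codons (vertical axis) against the SD of log2 occupancy over all sense codons of the same library (horizontal axis), for the 8 monosome libraries. The SD includes the 7 codons, so the axes are not independent. Open marks are WT and filled marks KO, blue shades are Val and green shades Ile, with the last base in the key. The Ile codons ending in U and C lie lower in libraries with a wider spread, and the Val codons stay between -0.49 and -0.08.

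Disome footprints were examined for the same codons. Because the tables may have been normalized separately, monosome and disome values are set side by side without a test. The Val codons again sat low, with WT occupancy of 0.656 for GUU, 0.643 for GUC, 0.746 for GUA and 0.673 for GUG. By mean log2 level over both genotypes Val was 19th of 20 amino acids. AUA remained the highest of the 7 codons in 4 of 4 libraries. Its values were 1.16 and 0.893 in WT replicates 1 and 2 and 1.20 and 1.13 in KO replicates 1 and 2. AUU was 0.651 and 0.655 in WT and 0.676 and 0.753 in KO, and it was not the lowest codon in any disome library. Ile was 11th by mean level over both genotypes, compared with 18th in monosomes. AUC ranked 36th by WT mean in disomes against 60th in monosomes.

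Within Ile, AUU lay below AUA by 0.68 and AUC below AUA by 0.48 on the log2 scale in disomes (limma adjusted p = 2.08e-05 and 0.000612). AUU lay below AUC by 0.20 in 4 of 4 libraries, short of the threshold (limma adjusted p = 0.0837). The rise from AUU to AUA was exceeded in 1 of 8 boxes, that of Arg with 1.21. No ratio between Val codons passed, with limma adjusted p from 0.227 to 0.903. In all 2 of 9 ratios within Val or Ile passed, and 1 of 3 Ile to Val ratios, AUA over GUA, against 67.6% of the 1830 ratios. The order of the Val codons differed between replicate numbers. GUA was 0.872 and 0.819 in WT and KO replicate 1 and 0.620 and 0.578 in WT and KO replicate 2, while GUU was 0.560 and 0.555 in replicate 1 and 0.752 and 0.691 in replicate 2. GUU thus exceeded GUA in both libraries of number 2 and fell short of it in both of number 1. The codon of another amino acid nearest to GUA over the 4 libraries was AUG of Met, at a root mean square difference of 0.23 in log2 occupancy. The nearest was UUC of Phe for GUU (0.14) and AUU (0.10), UUU of Phe for GUC (0.08), GCC of Ala for GUG (0.08), AAC of Asn for AUC (0.09) and CCC of Pro for AUA (0.15). GUA had the largest difference between replicate numbers of all 61 codons, 1.41-fold, and GUU the third largest, 1.29-fold.

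KO and WT disome libraries were then compared. None of the 7 codons passed the threshold (limma, 0 of 7, smallest adjusted p = 0.529), where 0% of the 61 codons passed. At an unadjusted p under 0.05 by limma 0 of 7 passed, against 16.4% of the 61 codons. The exact permutation test cannot go below 0.333 with 2 libraries per genotype. The log2 changes ran from -0.10 for GUA to 0.20 for AUA (0.0047 without WT replicate 2 and 0.39 without WT replicate 1), with a median of 0.13 and 4 of 7 above 0. Over all 61 codons the median change was 0.04 and 37 were above 0. AUU was the only member whose genotypes did not overlap, higher in KO by 0.13 (95% interval -0.14 to 0.39), where 29.5% of codons were separated in that direction, 23% in the other and 52.5% in either. The intervals of the other 6 codons were wider, from -0.66 to 0.47 for GUA at the widest.

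Point estimates for the Leu over Val or Ile ratios in disomes were above 0 for 9 of 10 pairs, from 0.07 to 0.37 on the log2 scale, and UUA over AUA was at -0.14. None passed the threshold (limma, 0 of 10, smallest adjusted p = 0.493, and 0 at an unadjusted p under 0.05), against 0% of 1830 ratios. CUC over AUC, at 0.36, had an interval of -0.08 to 0.80. Within Val or Ile 0 of 9 ratios passed in the genotype comparison (limma, smallest adjusted p = 0.694, and 0 at an unadjusted p under 0.05), against 0% of 1830 ratios by adjusted p. The share of all 1830 ratios at an unadjusted p under 0.05 was not computed. The U or A-ending codons changed by 0.05 less than the C or G-ending ones on the log2 scale, with a pooled SD of 0.14. Averaged over codons, Val changed by 0.03 (pooled SD 0.10) and Ile by 0.10 (pooled SD 0.09), and Leu by 0.28. The sign of the genotype change was the same in monosomes and disomes for 5 of the 7 codons and for 39 of all 61. None of the 7 codons separated the genotypes in monosomes, so separation in opposite directions between the footprint kinds was impossible for them. Of all 61 codons 0 showed it. Whether the changes differed between footprint kinds was not tested.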

How the data were processed

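The deposited values were the authors' relative codon occupancies, each a ratio on a linear scale that averages about 1 per library, in a table of 8 monosome and a table of 4 disome libraries. The authors trimmed reads, removed those on ribosomal and noncoding RNA with STAR, mapped the rest uniquely to canonical UCSC transcripts of hg19 (the build in the submitters' processing notes) and computed occupancies with custom software. The denominator and any filter on coverage are not given in the sources used here, depth is unknown, and no counting interval was computed. Each value is relative to its own library, so a rise at some codons can lower others.

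Groups and replicate numbers came from the sample titles. Log2 occupancy (no pseudocount) was fitted over all 61 sense codons per table by lmFit and eBayes, without a block (limma 3.58.1, R 4.3.3), with Benjamini-Hochberg adjustment and a threshold of 0.05. Within-library log2 ratios of all 1830 codon pairs were fitted likewise, for the genotype effect and for the mean level over both genotypes. The code was tested on simulated data. Codon usage came from GENCODE transcripts with 1 canonical transcript per gene, a different build from the authors', used for codon frequencies alone.

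Named codons were the 7 members, the 6 Leu codons and, for each member, the nearest codon of another amino acid. In monosomes, deviations of same-numbered WT and KO libraries from their group means correlated with r from 0.534 to 0.872 across codons, so the block is given where it changes a call. The members and lists were chosen with earlier results of these data known. Alternatives are in the closing section.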

Additional observations from a re-analysis of the deposited data

Results flagged for a closer look

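The Val codon GUC had an occupancy of 0.904 in WT monosome replicate 1, against 0.814 to 0.828 in the other 3 WT libraries, a gap of 0.848 of the whole range and above Dixon's critical value for 4 samples. The same library stood apart in the log2 ratio of CUC over GUC, at 0.0462 against 0.15 to 0.17, and in that of GUU over GUC, at -0.27 against -0.09 to -0.06. All 3 values hold the same GUC measurement. Of 70 groups of 4 libraries examined, 3 stood out, where chance gives about 3.5. Without this library the log2 change of GUC was 0.03, against 0.00 with it.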

How the results depend on the processing

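The count of Val and Ile codons past the threshold was 0 in both tables under all alternatives run, and so was the count of ratios within Val or Ile that changed with genotype. The number of Leu over Val or Ile ratios past the threshold in monosomes was 3 as deposited. It was 7 with the replicate block, 7 with the block and base composition correction, 6 with equal spread, 5 with quantile normalization and 1 among the 46 codons of highest occupancy, where only 4 of the 10 ratios could be formed. The exact permutation test gave 0, but its smallest p of 0.0286 cannot pass adjustment over 1830 ratios (smallest adjusted p = 0.275), so this says nothing of stability. Leaving out single libraries gave 0 to 3, with 0 for WT replicate 4 and for KO replicate 1, and 1 for WT replicate 3 and for KO replicate 3. Level ratios past the threshold numbered 9 of 12 in monosomes (8 to 9 without 1 library). In disomes they numbered 3, with 3 to 5 without 1 library, 5 without WT replicate 2, 0 with the exact test, whose smallest p is too large, and 1 among the 46 codons, where 1 ratio could be formed. In disomes the deviations of same-numbered libraries correlated with r = 0.0212, so the numbers were not taken as pairs, and the replicate block gave 0 genotype calls there too. The block changed no other call of the 7 codons or of their level counts. Fits without 1 disome library leave 1 in a genotype, assumed to vary like the other.

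Mean changes moved for Val in monosomes, to 0.00461 when centred on codons other than Val, Ile and Leu, 0.00944 on codons other than Leu and Ser and 0.0070 with quantile normalization. In disomes Ile moved to 0.00901 with median centring and Val to -0.0697 with quantile normalization. Single-codon changes near 0 crossed it. In monosomes GUC was 0.00608 with median centring, 0.0229 and 0.0277 with the 2 other centrings, 0.00459 with equal spread, 0.0106 with quantile normalization and 0.0138 with base correction, blocked or not. GUA was 7.8e-05, 0.0168, 0.0217, 0.00632 and 0.0251 under the first 5 of these. AUC and AUA were -0.00356 and -0.00449 with quantile normalization, and AUU, AUC and AUA were -0.0388, -0.00925 and -0.00460 with base correction, blocked or not. In disomes the GUA over GUG level was -0.00858 with equal spread and -0.0479 with quantile normalization.

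Without 1 library, monosome changes ranged from 0.0016 to 0.125 for AUA, -0.0704 to 0.0796 for AUU, -0.0679 to 0.0850 for AUC, -0.0283 to 0.0374 for GUA, -0.0168 to 0.0341 for GUC and -0.0380 to 0.0426 for GUG, and the GUC over GUA level from -0.00378 to 0.0404. Disome changes ranged from 0.0047 to 0.387 for AUA, -0.138 to 0.113 for AUC, -0.347 to 0.156 for GUA, -0.0310 to 0.314 for GUG and -0.281 to 0.145 for GUU. Disome ratio changes ranged from -0.134 to 0.271 for CUA over AUA, -0.332 to 0.0541 for UUA over AUA and -0.252 to 0.556 for UUA over GUA. Disome levels ranged from -0.191 to 0.228 for GUA over GUG, -0.249 to 0.0842 for GUC over GUA, -0.396 to 0.0636 for GUU over GUA and -0.224 to 0.0572 for GUU over GUC. The cause was not tested. The linear scale was run for single codons alone, and no level ratio could be formed among the 46 codons in monosomes. Depth is unknown, so the share of counting error could not be assessed.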
